A study of Arabidopsis thaliana with 10 samples.

Results

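The comparison asks whether 3 days of darkness changed leaf gene expression differently in 2 Arabidopsis thaliana lines that overexpress mutant forms of Ran, a small GTPase of nuclear transport. It uses the 8 count files whose names give Ran-G22V or Ran-T27N, day 0 (D0) or day 3 (D3), and Set 1 or Set 2, out of 10 in the series. For each gene the dark change in the T27N files (D3 over D0) was subtracted from the dark change in the G22V files, on the log2 scale. A positive difference therefore means a larger rise, or a smaller fall, in the G22V files. The other 2 files are Col D0, wild type Col-0 without dark treatment, and are given for reference.

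All plants were 4 weeks old and came from a 16 h light and 8 h dark cycle at 22 °C. The fifth and the sixth leaf were taken, and D3 leaves had been detached and kept dark for 3 days. No group held detached leaves in light or attached leaves in the dark. Darkness, detachment and the time passed therefore cannot be told apart, and "dark change" stands for all of them. Per the labels, RanT27N stands for Ran-GDP and RanG22V for Ran-GTP overexpression. The sources used here do not state the promoter that drives the transgene, the number of independent lines, the plants in a library, or whether the 2 sets came from separate plants. With n = 2 in every group, a p-value reflects the scatter of the libraries, and part or all of that may be technical.

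The names of the files and the titles of the samples disagree for all 8 Ran libraries. The pair with G22V D0 in the file name is titled RanT27N D0, the G22V D3 pair is titled RanG22V D0, the T27N D0 pair is titled RanT27N D3, and the T27N D3 pair is titled RanG22V D3. All names in the text are those of the files. Under the titles, what is called here the dark change of the G22V files becomes the line difference on day 0, and the dark change of the T27N files becomes the line difference on day 3. The test itself is the same test under both namings: for all 21475 genes tested the difference by titles had the opposite sign and the same size. Which line and which day a value belongs to depends on the naming, so every statement on the lines holds by file name.

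The levels of 1 marker are given here as an example under both namings, and which naming is right was not tested. SAG12, a cysteine protease gene used as a marker of leaf senescence, had 508 and 756 CPM (counts scaled by the adjusted library total) in the D3-named G22V pair (Set 1, then Set 2) and 139 and 439 in the D3-named T27N pair. It had 0.139 and 1.22 CPM in the G22V D0 pair, 0.0602 and 0.449 in the T27N D0 pair and 1.15 and 0 in Col D0. The 4 high libraries are the 4 with D3 in the file name and also the 4 titled RanG22V, since both namings split the libraries in the same way here.

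Total counts ran from 14187505 to 24496672 per library. Ribosomal RNA rows took 8.76% of the counts in the second G22V D3 library and 17.4% to 21.9% in the other 7 Ran libraries. Leaving those rows out gave the same number of calls. In bulk leaf RNA, fewer cells of a type and less RNA per cell cannot be told apart. Of the leaf markers, all 5 for mesophyll, all 5 for guard cells, all 5 for phloem and 4 of 5 for epidermis were abundant enough to be tested, against 4 of 11 for other organs.

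As background, Ran cycles between a GDP-bound form in the cytoplasm and a GTP-bound form in the nucleus, and this gradient drives import and export through the nuclear pore. In plants, T27N-type mutants are held in the GDP-bound state and G22V-type mutants in the GTP-bound state. Detached leaves kept dark run out of carbon and enter senescence. They break down chlorophyll, protein, nucleic acids and lipids, respire amino acids and fatty acids, and shut off photosynthesis genes. The endoplasmic reticulum folds secreted and membrane proteins with a set of chaperones, and its genes rise together when unfolded protein accumulates.

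Many genes changed between D0 and D3 in both lines. By edgeR's quasi-likelihood test with Benjamini-Hochberg adjustment, at an adjusted p below 0.05 over all 21475 genes, 3782 genes (17.6%) changed in the G22V files, with 1772 higher (8.25%) and 2010 lower (9.36%). In the T27N files 2324 genes (10.8%) changed, with 838 higher (3.9%) and 1486 lower (6.92%). Genes called in both numbered 1456, which is 38.5% of the G22V calls and 62.7% of the T27N calls. Of these, 533 rose in both, 913 fell in both and 10 changed in opposite directions. Among the 533 that rose in both, the median log2 change was 2.90 in the G22V files and 2.44 in the T27N files, and 351 had the larger rise in the G22V files. Among the 913 that fell in both, the medians were −3.08 and −2.80, and 523 fell further in the G22V files. Without 1 library the number of G22V calls ran from 1641 to 4658 and that of T27N calls from 486 to 3191. The G22V count moved by over 1.5 times without the first G22V D0 library (2074) and without either G22V D3 library (1641 and 1698). The T27N count did so without either T27N D0 library (915 and 1130) and without either T27N D3 library (630 and 486).

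The difference between the dark changes passed the same test for 45 genes (0.21%), of which 41 were higher in the G22V files (0.191%) and 4 were lower (0.0186%). Their differences ran from 2.49 to 9.93 in absolute log2 units, and the smallest adjusted p was 0.00737. Over all genes the median difference was −0.02 with quartiles of −0.77 and 0.69. At an unadjusted p below 0.05 there were 1373 genes on the higher side (6.39%) and 1341 on the lower side (6.24%). The number of calls rests on single libraries: without one it was 26 or 13 (first or second G22V D0), 4 or 19 (G22V D3), 45 or 3 (T27N D0), 6 or 1 (T27N D3), and 135 or 123 (Col D0). Each of the 45 lost its call without at least 1 Ran library, and all 45 kept their sign in every one of 18 alternative fits. Fitting only the 8 Ran libraries gave 109 calls, 87 higher and 22 lower. DESeq2 gave 719, 482 higher and 237 lower, and no filter on low counts gave 568, 358 higher and 210 lower. All 45 genes were called again in each of these 3 fits.

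**Figure D1:**
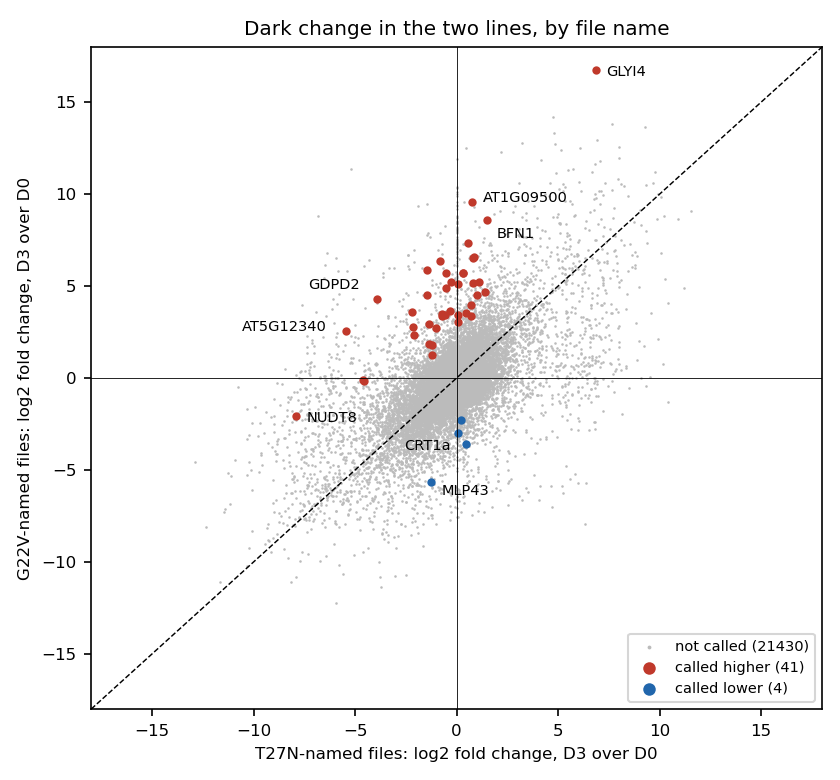
Dark change of each of 21475 genes in the T27N files (x axis) and in the G22V files (y axis), both log2 D3 over D0, with the diagonal marking equal change. The 41 genes called higher (red) lie above the diagonal and the 4 called lower (blue) below it. NUDT8 lies above it while falling in both lines.

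Most of the 41 genes called higher rose in the G22V files and were not called in the T27N files. Not called does not mean unchanged. By fitted sign, 18 of the 41 rose in both lines, more so in the G22V files. Another 20 changed in opposite directions and 3 fell in both. By their own tests, 27 rose in the G22V files and were not called in the T27N files, 9 rose in the G22V files and fell in the T27N files, 2 rose in both, 1 fell in both, and 2 were not called in the G22V files and fell in the T27N files. For 38 of the 41, both G22V D3 libraries lay above the other 8 libraries, a pattern that 16.8% of all genes tested showed. The test that chose the 41 favours high G22V D3 values, so this describes the genes and is no further support. The line difference was larger after darkness than before it for 39 of the 41. All 41 were called higher in the G22V files on day 3 (2.77% of all genes), a comparison that shares its libraries with this one, and 1 was called lower on day 0 (0.0233%). All 4 genes called lower fell in the G22V files and were not called in the T27N files. For 3 of these 4, the line difference was larger before darkness, and 1, MLP43, was called lower in the G22V files on day 3 (1.17% of all genes).

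**Figure D2:**
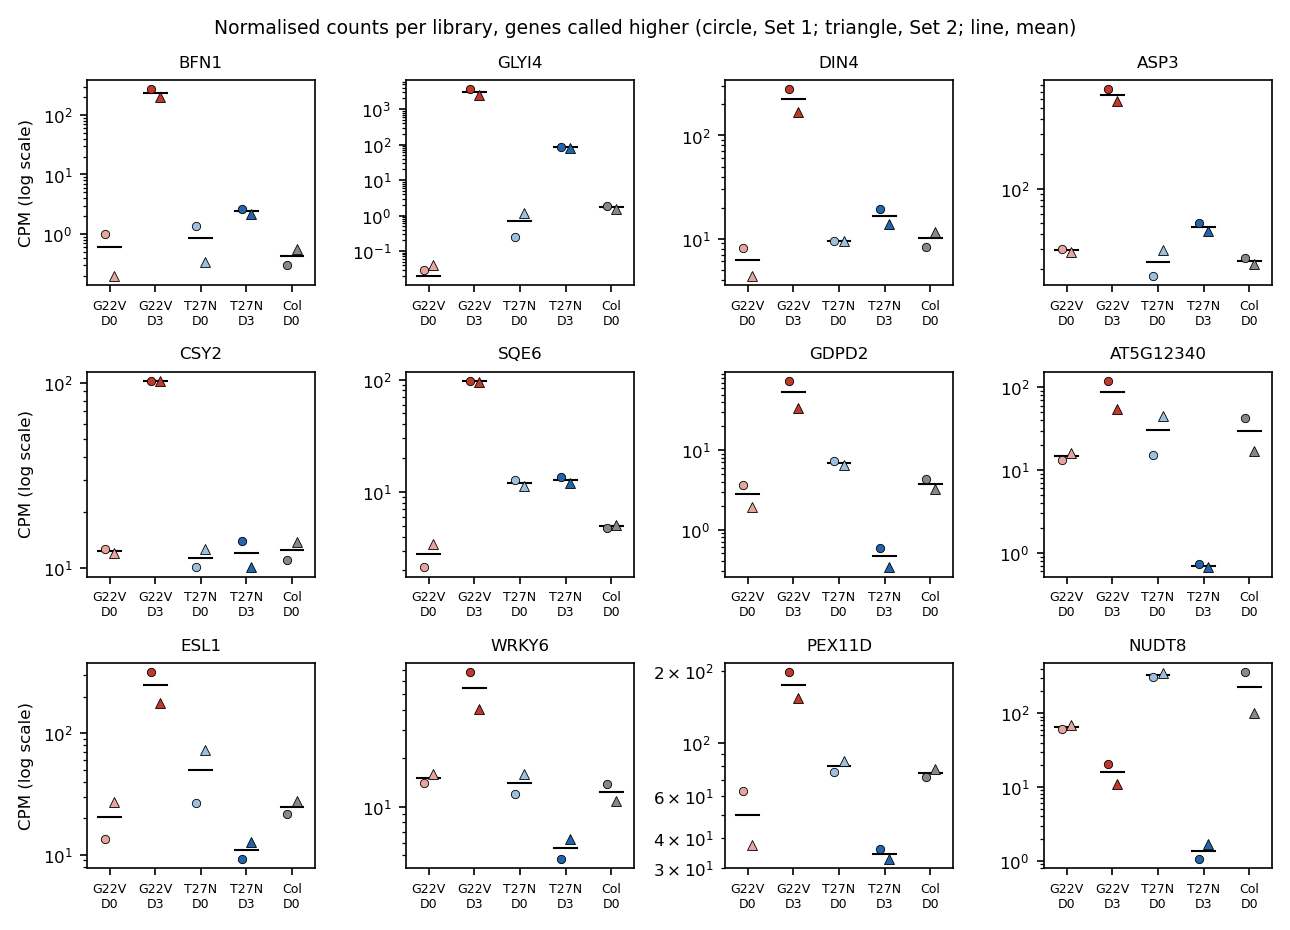
CPM per library on log axes for 12 of the genes called higher, with the file-name groups along the x axis (circle, Set 1; triangle, Set 2; bar, mean of the pair). A library with 0 counts is drawn at 0.03 CPM, which concerns GLYI4. In the first 11 panels both G22V D3 libraries are the highest, and in the NUDT8 panel both T27N D3 libraries are the lowest.

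The 41 are described here by what their products are known to do, an order chosen after their values were seen and not tested as groups. BFN1 (AT1G11190) encodes the bifunctional nuclease that degrades RNA and DNA in senescing leaves. Its level was 1.02 and 0.197 CPM in the G22V D0 pair, 269 and 202 in G22V D3, 1.38 and 0.336 in T27N D0 and 2.64 and 2.14 in T27N D3. Only the G22V D3 pair stood apart. The difference in dark change was 7.14 ± 1.04 log2 units (SE; edgeR adjusted p = 0.0341). ALPHA-VPE (AT2G25940), a vacuolar processing enzyme that matures vacuolar proteins, went from 1.16 and 0.473 to 33.6 and 28.1 CPM in the G22V files and from 2.23 and 2.02 to 1.72 and 1.81 in the T27N files. An aspartyl protease family gene, AT1G03220, went from 7.99 and 12.6 to 386 and 383 CPM and from 14.2 and 11.5 to 33.5 and 22.3. RGLG3 (AT5G63970), a ubiquitin ligase, went from 3.88 and 3.12 to 23.4 and 22.8 CPM and from 6.86 and 9.48 to 4.55 and 3.42. In each of these 3 genes the G22V pairs did not overlap, and their differences were 5.51, 4.10 and 3.76 log2 units.

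DIN4, ASP3 and HMT3 encode enzymes of amino acid metabolism. DIN4 (AT3G13450), the E1 beta subunit of the dehydrogenase that breaks down branched-chain amino acids, had 8.13 and 4.34 CPM before and 280.3 and 167 CPM after darkness in the G22V files, against 9.57 and 9.42 and 19.2 and 13.8 in the T27N files. Its difference was 4.37 ± 0.58 (SE; edgeR adjusted p = 0.0239). ASP3 (AT5G11520), an aspartate aminotransferase, had 30.1 and 28.2 and then 731 and 577 CPM in the G22V files and 17.4 and 29 and then 50.4 and 43 in the T27N files, a difference of 3.48 ± 0.48 (SE; edgeR adjusted p = 0.0265). HMT3 (AT3G22740), which makes methionine from homocysteine, rose from 6.98 and 9.35 to 84.9 and 102 CPM in the G22V files and stood at 7.58 and 5.44 and 9.83 and 8.18 in the T27N files. On day 0 none of these 3 genes was called between the lines. The transporter gene UMAMIT33 (AT4G28040) rose in both lines, from 4.34 and 5.64 to 147 and 113 CPM and from 8.54 and 7.96 to 26.3 and 16.6 CPM, with the larger rise in the G22V files (difference 3.32).

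CSY2, PEX11D and SQE6 encode proteins of peroxisomes or of lipid metabolism. CSY2 (AT3G58750), the citrate synthase of peroxisomes that fatty acid breakdown uses, had 12.8 and 12.1 CPM in G22V D0 and 102 and 102 in G22V D3. In the T27N files it had 10.1 and 12.7 and 14 and 10.2 CPM, and 11 and 13.9 in Col D0. The 8 libraries other than G22V D3 lay within the same narrow range, and the difference was 2.95 ± 0.40 (SE; edgeR adjusted p = 0.0262). PEX11D (AT2G45740), a factor of peroxisome division, rose from 62.8 and 37.4 to 197 and 153 CPM in the G22V files and fell from 75.3 and 84.2 to 35.9 and 32.7 in the T27N files. SQE6 (AT5G24160), a squalene monooxygenase, had 2.13 and 3.43 CPM in G22V D0, 97.5 and 95.7 in G22V D3, 12.8 and 11.3 in T27N D0 and 13.5 and 11.9 in T27N D3. It was the 1 gene of the 41 called lower in the G22V files before darkness (log2 −2.11, edgeR adjusted p = 0.0351), and it was higher there after darkness. Its difference of 5.04 ± 0.43 (SE; edgeR adjusted p = 0.00737) stayed called in 17 of the 18 alternatives, as did those of GDPD2 and AT5G18980.

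The largest fitted difference was that of GLYI4 (AT1G15380), a gene of the glyoxalase I family, whose members detoxify methylglyoxal. The G22V D0 pair held 1 count in all, and the G22V D3 pair had 3625 and 2532 CPM. GLYI4 rose in the T27N files as well, from 0.241 and 1.18 to 83.8 and 82.6 CPM. The ratio of the G22V pairs has a 95% counting interval of 28008 to 6.16e+06, so the fitted difference of 9.93 ± 1.15 (SE; edgeR adjusted p = 0.0174) is imprecise in size. AT1G09500, annotated as an NAD(P)-binding protein, rose from 0.139 and 0.316 to 245 and 112 CPM in the G22V files and had 0.541 and 0.897 and 1.78 and 0.761 CPM in the T27N files. AT5G18980, a gene of the ARM repeat family, had 2.68 and 1.74 and then 140.4 and 92.9 CPM against 1.99 and 2.58 and then 1.72 and 1.43. Their differences were 8.77 and 6.27 log2 units, and neither gene was called between the lines on day 0.

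CKX2 and AHP1 belong to cytokinin breakdown and signalling. CKX2 (AT2G19500), an oxidase that degrades cytokinin, a hormone that delays leaf senescence, rose from 1.39 and 1.46 to 37.8 and 47.5 CPM in the G22V files and was at 1.99 and 2.36 and 0.99 and 1.95 in the T27N files. AHP1 (AT3G21510), a phosphotransmitter of cytokinin signalling, went from 2.22 and 2.05 to 24.4 and 21.8 CPM against 7.22 and 5.78 and 5.48 and 3.28. The differences were 5.44 for CKX2 and 4.00 for AHP1. STY46 (AT4G38470), a protein kinase, went from 8.46 and 5.76 to 109.5 and 67.7 CPM in the G22V files while the T27N libraries stayed between 8.04 and 12.6 CPM. UGT75B1 (AT1G05560), a glucosyltransferase, rose from 7.44 and 9.23 to 529 and 342 CPM against 25.8 and 23.6 and 38.1 and 23.2. AT3G21790, of the same enzyme superfamily, rose from 20.7 and 13.7 to 175 and 185 CPM against 21.7 and 26.4 and 40.5 and 36.8.

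Some of these calls cannot be assigned to 1 gene. UGT75B1 and the lncRNA gene AT1G05562 overlap on opposite strands and had identical counts in every library. CYP91A2 (AT4G37430), a cytochrome P450 gene, and the lncRNA gene AT4G37432 overlap in the same way. The CYP91A2 row had 11.2 and 26 CPM in G22V D0 and 1637 and 1875 in G22V D3, against 15.3 and 10.8 and 26.4 and 21.1 in the T27N files, and the lncRNA row had nearly the same values. AT1G62240 with AT1G62250 and PDIL2-1 with AT2G47480 are further such pairs, 4 in all. The sources used here do not state the counting strand, so reads from a gene and its opposite-strand partner cannot be told apart. Of the 45 called genes, 17 overlap some other gene, 41 are protein coding, and 2 have a row name used more than once and are not named here.

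Among the 45 called genes, 9 had opposite dark changes that were both called, up in the G22V files and down in the T27N files. By fitted sign alone, 20 genes called higher and 3 called lower had opposite dark changes. GDPD2 (AT5G41080), a glycerophosphodiester phosphodiesterase that releases glycerol phosphate from lipid head groups, rose from 3.65 and 1.93 to 74.3 and 33.6 CPM in the G22V files. In the T27N files it fell from 7.28 and 6.45 to 0.594 and 0.333 CPM. Neither line overlapped itself between the days, and the difference was 8.18 ± 0.76 (SE; edgeR adjusted p = 0.00914). AT5G12340, a gene of unknown function, rose from 13.3 and 16.3 to 119.8 and 54 CPM and fell from 15.3 and 45.4 to 0.726 and 0.666, with 42.9 and 17.1 in Col D0. ESL1 (AT1G08920), a monosaccharide transporter gene, rose from 13.5 and 27.3 to 318 and 179 CPM and fell from 26.9 and 73.5 to 9.24 and 12.8. Their differences were 7.99 and 5.79 log2 units.

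WRKY6 (AT1G62300), a transcription factor gene known from leaf senescence, showed the same reversal at a smaller size. It rose from 14 and 16 to 68 and 40.4 CPM in the G22V files and fell from 12 and 16 to 4.75 and 6.33 in the T27N files, a difference of 3.19 ± 0.49 (SE; edgeR adjusted p = 0.0454). Before darkness it was within 10.9 and 16 CPM in all 6 D0 libraries. GPAT2 (AT1G02390), an acyltransferase of glycerolipid synthesis, rose from 9.2 and 9.43 to 88.7 and 56.3 CPM and fell from 9.32 and 19 to 5.67 and 5.18. RTFL6 (AT4G35783), which encodes a small peptide of the ROTUNDIFOLIA-like family, rose from 2.77 and 7.5 to 34.6 and 35.9 and fell from 3.85 and 3.98 to 0.792 and 0.951 CPM. AT3G18950, a WD40 repeat gene, and AT4G28025, of unknown function, complete the 9 with PEX11D. Their differences were 4.45 and 2.49 log2 units.

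In 3 of the 41 genes both fitted dark changes were negative and that in the T27N files was the larger. In 2 of these the change in the G22V files was not called. NUDT8 (AT5G47240), a nudix hydrolase gene, had 312 and 352 CPM in T27N D0 and 1.06 and 1.66 in T27N D3. In the G22V files it went from 61.9 and 70.1 to 20.5 and 11.1 CPM, and Col D0 had 359 and 102. It fell in both lines, by log2 −7.91 in the T27N files and −2.06 in the G22V files (edgeR adjusted p = 0.00138 and 0.0331), and the T27N fall was the larger (difference 5.85 ± 0.84, SE; edgeR adjusted p = 0.0328). AT1G53885, annotated with a DUF581 domain, went from 67.5 and 156 to 5.54 and 3.71 CPM in the T27N files and had 17.9 and 23.8 and 15 and 23.4 in the G22V files, whose pairs overlapped. AT1G53903 is a near-identical copy of it with nearly the same counts, so reads may be split between them, and they are best counted as 1 observation.

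**Figure D3:**
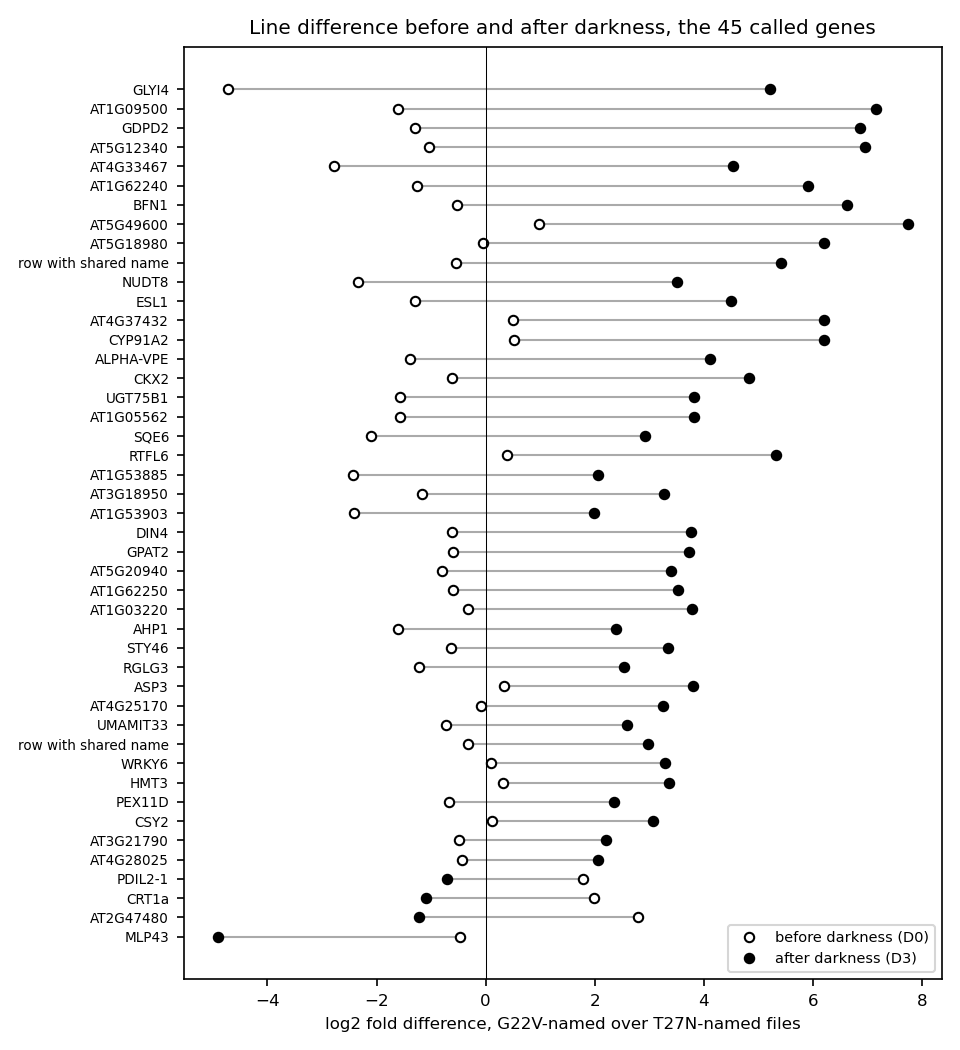
For each of the 45 called genes (y axis, in order of the difference in dark change), the log2 fold difference of the G22V files over the T27N files before darkness (open circle) and after it (filled circle). In the 41 genes called higher the filled circle is to the right of 0, and in 3 of the 4 called lower the open circle is the farther from 0.

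The remaining genes called higher rose in the G22V files and were not called in the T27N files. They include AT4G33467 (difference 7.31), AT1G62240 (7.18), AT5G49600 (6.75), AT5G20940, a glycosyl hydrolase gene (4.20), AT1G62250 (4.13) and AT4G25170 (3.34), in log2 units.

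On the other side, 13 of 19 tested genes of endoplasmic reticulum protein folding fell in the G22V files (9.36% of all genes). In the T27N files 0 of the 19 fell, where the share of all genes was 6.92%, so that 0 is near the share. The list holds 20 genes and was chosen with earlier results of these data known. CRT1a (AT1G56340), a calreticulin that holds glycoproteins while they fold, had 199 and 264 CPM in the G22V D0 pair and 26.8 and 31.1 in the G22V D3 pair. It had 54.5 and 62 CPM in T27N D0, 57.5 and 65.7 in T27N D3 and 55.6 and 61.2 in Col D0. The G22V D0 pair was above all 6 T27N and Col libraries, and the G22V D3 pair was below all of them. The difference in dark change was −3.08 ± 0.40 (SE; edgeR adjusted p = 0.0232). PDIL2-1 (AT2G47470), a protein disulfide isomerase, had 184 and 185 CPM and then 38.3 and 38 in the G22V files and 57 and 49.9 and then 62.6 and 62.4 in the T27N files. Its difference was −2.50 ± 0.36 (SE; edgeR adjusted p = 0.0328). AT2G47480 overlaps it on the opposite strand and was called lower too (−4.03).

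Other genes of the list did not pass the adjusted threshold for the difference. Of these, BIP1, BIP2, SHD and PDIL1-1 were picked for the small unadjusted p of their difference in these data. BIP1 and BIP2, the Hsp70 chaperones of the endoplasmic reticulum, had 546 and 712 and 410.1 and 546 CPM in the G22V D0 pair. After darkness they had 115 and 128 and 50.1 and 46.3. In the T27N files BIP1 had 139 and 131 CPM before and 195 and 232 after darkness, and BIP2 38.3 and 32.1 and 29.8 and 41.3. SHD, the Hsp90 of this compartment, went from 458 and 578 to 74 and 83 CPM in the G22V files and from 92 and 94.9 to 82.8 and 126 in the T27N files. For these 3 the differences were −3.03, −3.33 and −2.88, with edgeR adjusted p = 0.051, 0.0563 and 0.0503. BIP3, a stress-induced BiP, had 73.3 and 196 CPM and then 20.3 and 14 in the G22V files, 2.59 and 5.16 and then 2.64 and 11.1 in the T27N files and 2.15 and 2.07 in Col D0, a difference of −3.80 (edgeR adjusted p = 0.154). CNX1, the membrane-bound relative of calreticulin, went from 435 and 704 to 70.6 and 74.6 CPM against 90.5 and 87 and 86.6 and 117. PDIL1-1, a further disulfide isomerase, went from 176 and 135 to 44.4 and 46.4 CPM against 32 and 38.7 and 53.1 and 55.6, and PDIL1-2 from 148 and 180.2 to 24.4 and 20.4 against 18.6 and 31.6 and 15.7 and 35.4.

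Counted over the 19, 2 were called lower and 0 higher, and 13 had an unadjusted p below 0.05 on the lower side, where the share over all genes was 6.24%. The median difference was −2.50, against −0.02 over all genes. That count was 13 or 14 without any 1 library and in every other alternative, and the median stayed between −2.60 and −2.37. For 14 of the 19, both G22V D0 libraries lay above the other 8, a pattern of 3.94% of all genes. By their own tests 13 fell in the G22V files (9.36% of all genes) and 0 in the T27N files (6.92%), a 0 that is near the share. On day 0, 12 were higher in the G22V files than in the T27N files, where 0.321% of all genes were. After darkness 0 of the 19 were called between the lines (3.94% of all genes), so that 0 is near the share. The median line difference of the 19 was log2 2.15 before darkness and 0.10 after it. The calls on day 0 rest on few libraries: over all genes there were 74 (0.345%), and 0 without either T27N D0 library. The members outside this pattern were SAR1A, BZIP60, BZIP28, HRD1A and UBC32. UBC32, a ubiquitin-conjugating enzyme of protein disposal, rose in both lines, from 51.6 and 58 to 232 and 239 CPM and from 30.6 and 43.9 to 92.8 and 131 CPM. BZIP60, which encodes a transcription factor that activates chaperone genes, had 789 and 351 and then 422 and 514 CPM in the G22V files, and 605 and 494 and then 195 and 217 in the T27N files.

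**Figure D4:**
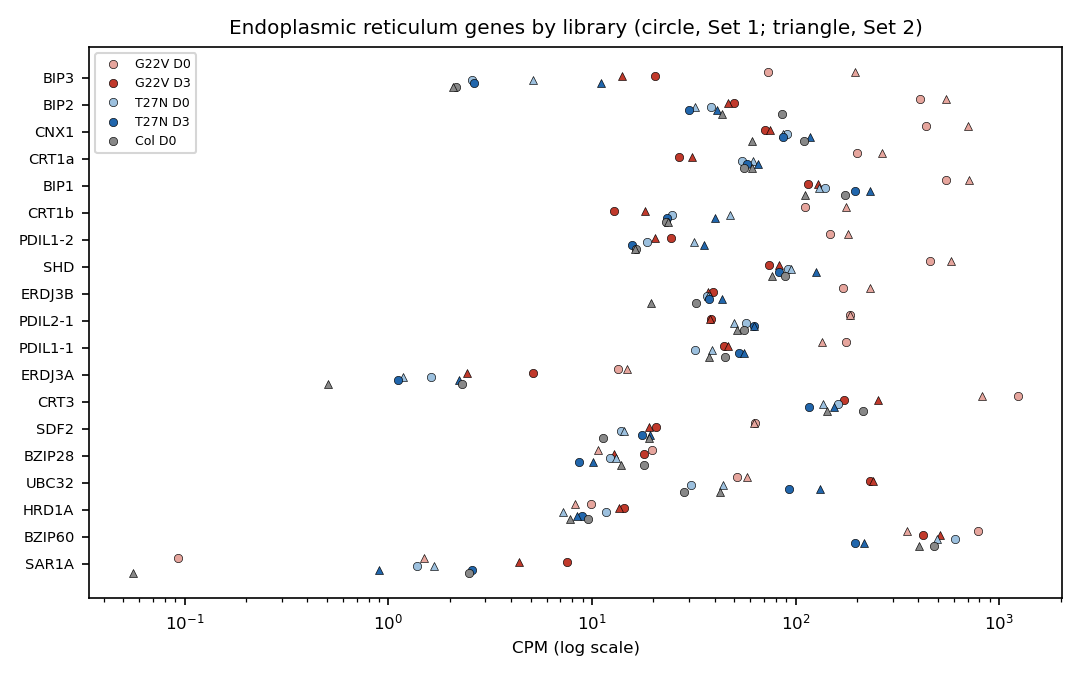
CPM per library (x axis, log scale) of the 19 endoplasmic reticulum genes tested (y axis, most negative difference in dark change at the top; circle, Set 1; triangle, Set 2). A library with 0 counts is drawn at 0.03 CPM. From BIP3 down to SDF2 the G22V D0 pair lies to the right of the other 8 libraries.

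The sequences before these genes are shown because an endoplasmic reticulum stress element is a known feature of such promoters. The motif searched was CCAATNNNNNNNNNNCACG on both strands of the 250 bases before the annotated transcript start in RefSeq TAIR10.1. It was chosen after the gene values were seen. It was found before 5 of the 19 listed genes (26.3%), all 5 among the 13 with an unadjusted p below 0.05, and before 170 of 20975 genes tested that have a window (0.81%). It was found before 1 of 39 genes called higher and 1 of 4 called lower. The windows of 4 of the 5 contain no other gene, and each is given 5′ to 3′ on the strand of the gene, with the matches in capitals. In BIP3, CRT1a and PDIL1-1 the match is on the strand opposite to the gene.
BIP3 (AT1G09080), chr1:2931851-2932100, minus strand: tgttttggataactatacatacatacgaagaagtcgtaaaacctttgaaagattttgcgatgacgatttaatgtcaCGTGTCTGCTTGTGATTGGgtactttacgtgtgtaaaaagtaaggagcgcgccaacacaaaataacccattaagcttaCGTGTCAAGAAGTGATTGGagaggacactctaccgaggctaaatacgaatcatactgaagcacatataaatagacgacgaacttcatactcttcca
CRT1a (AT1G56340), chr1:21092710-21092959, minus strand: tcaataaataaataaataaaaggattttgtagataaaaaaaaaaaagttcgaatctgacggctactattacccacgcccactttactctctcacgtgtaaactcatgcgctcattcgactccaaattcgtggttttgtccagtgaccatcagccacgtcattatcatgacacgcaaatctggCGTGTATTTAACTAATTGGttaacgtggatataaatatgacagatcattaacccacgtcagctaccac
PDIL1-1 (AT1G21750), chr1:7645360-7645609, plus strand: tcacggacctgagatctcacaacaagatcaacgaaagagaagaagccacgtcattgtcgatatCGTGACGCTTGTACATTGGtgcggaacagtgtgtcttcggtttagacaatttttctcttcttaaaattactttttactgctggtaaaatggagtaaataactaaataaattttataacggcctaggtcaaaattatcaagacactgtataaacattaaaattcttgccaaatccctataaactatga
PDIL1-2 (AT1G77510), chr1:29126398-29126647, plus strand: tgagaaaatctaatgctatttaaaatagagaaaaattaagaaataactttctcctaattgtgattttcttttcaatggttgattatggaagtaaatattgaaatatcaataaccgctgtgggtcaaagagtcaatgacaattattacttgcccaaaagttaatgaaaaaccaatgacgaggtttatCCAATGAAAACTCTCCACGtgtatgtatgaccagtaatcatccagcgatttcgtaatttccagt
BIP3 holds 2 matches and the other 3 windows 1 each. The shorter motif CACGTG was found before 7 of the 19 (36.8%) and before 6.98% of all genes, and in places it overlaps the longer one. CCACG was found before 8 of the 19, against 15.7% of all genes. A match is a run of letters and not a shown binding site. Before the genes called higher, motifs of light, clock, ethylene and WRKY factors were about as common as before all genes: CACGTG in 7.69%, TTGAC in 51.3% against 44.9%, GATAAG in 17.9% against 12.4%, GCCGCC in 2.56% against 2.00%, and AAAATATCT in 2.56% against 2.43%.

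MLP43 (AT1G70890), of the major latex protein family, was the fourth gene called lower and had another course. It had 73.2 and 83.6 CPM in G22V D0 and 2.24 and 0.814 in G22V D3, and 117 and 99.9 and 50.4 and 41.5 in the T27N files. The lines were close before darkness and differed after it. The difference was −4.44 ± 0.64 (SE; edgeR adjusted p = 0.0341). PME44, a pectin methylesterase picked for its small unadjusted p, had a like course without passing the threshold. It went from 58.9 and 78 to 5.43 and 2.78 CPM against 57.6 and 63.7 and 47.2 and 27.9 (difference −3.37, edgeR adjusted p = 0.0561).

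Lists of genes were counted by tested members with an unadjusted p below 0.05 on the higher or the lower side of the difference. Over all genes these shares were 6.39% and 6.24%. The lists were chosen with earlier results of these data known, so the counts describe their members and do not test a process. Genes of darkness and carbon starvation had 13 of 26 on the higher side and 1 on the lower, with a median difference of 2.46, and 1 of them, DIN4, was called. In their own tests 16 rose in the G22V files (8.25% of all genes) and 5 in the T27N files (3.9%). DIN2, a beta-glucosidase induced by darkness, reached 2159 and 2029 CPM in G22V D3 against 8.71 and 19.1 in T27N D3, from 0.277 and 0.118 and 0.541 and 0.449 on day 0 (difference 8.55, edgeR adjusted p = 0.0606). The branched-chain amino acid genes LTA1 and MCCA stood at 3.08 and 3.08, with edgeR adjusted p = 0.0619 and 0.074. ASN1, the dark-inducible asparagine synthetase gene, rose in both lines, to 1485 and 839.7 CPM in G22V D3 and 10.8 and 42.7 in T27N D3 (difference 3.21, edgeR adjusted p = 0.275).

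Autophagy genes, whose products deliver cell contents to the vacuole, had 8 of 23 on the higher side and 0 on the lower, with a median of 0.95 and none called. Of the 23, 15 rose in the G22V files (8.25% of all genes) and 3 in the T27N files (3.9%). Both G22V D3 libraries lay above the other 8 for 20 of the 23 (16.8% of all genes). ATG8H went from 7.76 and 5.41 to 133 and 101 CPM in the G22V files and from 4.03 and 4.09 to 7.13 and 11.3 in the T27N files. ATG7, the activating enzyme of the pathway, rose in both lines, to 83.7 and 76.3 and 9.57 and 13.7 CPM from 3.37 and 3.95 and 3.49 and 3.76. Without 1 library, the count of 8 ran from 2 to 10, with 2 to 4 when the first G22V D0, either G22V D3, the second T27N D0 or either T27N D3 library was left out. The median was 0.58 without the second T27N D0 library.

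Senescence genes had 8 of 27 on the higher side and 0 on the lower (median 1.12), with BFN1 and WRKY6 called. Without 1 library the median ran from 0.47 (second T27N D0 library left out) to 1.90 (second G22V D0 library), and the count of 8 from 7 to 12. SAG29, a sugar transporter gene of senescence, had 786 and 973 CPM in G22V D3 and 3.37 and 1.09 in T27N D3, with 0 and 2.09 and 0.541 and 1.18 on day 0 (difference 8.34, edgeR adjusted p = 0.125). Other well-known senescence genes were not called. SAG12 rose in both lines, with a difference of −0.27 ± 1.66 (SE; edgeR adjusted p = 0.99). ORE1 and NAP, transcription factor genes of age-induced senescence, had differences of 0.36 ± 1.51 and 0.24 ± 1.55 (SE; edgeR adjusted p = 0.972 and 0.991). In both, the second library of each D0 pair was several times the first, as in 11.1 and 66.2 CPM for NAP in G22V D0 and 4.03 and 35.3 in T27N D0. Chlorophyll breakdown had 5 of 13 on the higher side (median 1.40, none called). Without 1 library that count ran from 2 (second T27N D0 or first T27N D3 library left out, with 3 without the second G22V D3 library) to 6, and that median from 0.69 (second T27N D0 library, with 0.90 without the first G22V D0 library) to 1.45. NYC1, which converts chlorophyll b, reached 1987 and 1617 CPM in G22V D3 and 178 and 297 in T27N D3, and NYE1, which removes magnesium from chlorophyll, 781 and 854 and 204 and 211. NYE1 rose in both lines, and its difference of 0.84 was not called (edgeR adjusted p = 0.544).

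Of 29 jasmonate genes, 21 fell in the T27N files (6.92% of all genes) and 14 in the G22V files (9.36%). In the T27N files 1 rose (3.9% of all genes). For the difference, 9 were on the higher side and 1 on the lower (median 0.97, none called). The repressor genes JAZ8, JAZ7 and JAZ6 had differences of 5.39, 4.16 and 3.34, with edgeR adjusted p = 0.0523, 0.164 and 0.146. JAZ8 went from 26.9 and 22.4 to 0.264 and 0.381 CPM in the T27N files and from 14.2 and 4.1 to 6.8 and 3.59 in the G22V files. On day 0 most of these genes were lower in the G22V pair than in the T27N pair (median log2 −0.86). Of the 29, 0 were called on day 0, where 0.345% of all genes were, so that 0 is near the share. With 1 library left out the count of 9 ran from 5 (second T27N D3 library) to 12, and the median from 0.77 to 1.72 (first G22V D0 library).

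Of 30 salicylic acid genes, 5 were on the higher side and 7 on the lower (median −0.43, none called). PR5 and PR2, defence proteins of this hormone, had 1425 and 439.6 and 4246 and 2671 CPM in the G22V D0 pair and 19.3 and 11.3 and 74.9 and 57.9 in the T27N D0 pair. After darkness they had 4.29 and 16.8 and 100.3 and 284 CPM in the G22V files, and 2.18 and 5.9 and 12 and 33.3 in the T27N files. Their differences were −4.56 and −2.62, with edgeR adjusted p = 0.148 and 0.393. On day 0, 5 of the 30 were called higher in the G22V files (0.321% of all genes). Both G22V D0 libraries lay above the other 8 for 11 of the 30 (3.94% of all genes). PR1 was higher in the G22V than in the T27N libraries on both days, with 668 and 189 CPM before and 80.8 and 299.8 after darkness, against 1.56 and 5.44 and 2.31 and 2.05 in the T27N files. The median of the 30 ran, without 1 library, from −1.61 (second T27N D0 library) to 0.04 (second G22V D0 library), the count of 5 from 3 to 5 and that of 7 from 4 to 10. Cysteine-rich receptor kinase and receptor-like protein genes, which include sensors of defence, had 1 of 82 on the higher side and 12 on the lower (median −0.78). Without 1 library the count of 12 ran from 5 (second T27N D3 library left out, with 7 without the first G22V D3 library) to 17, that of 1 from 1 to 4, and the median from −1.42 (second G22V D3 library) to −0.21 (second T27N D3 library).

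**Figure D5:**
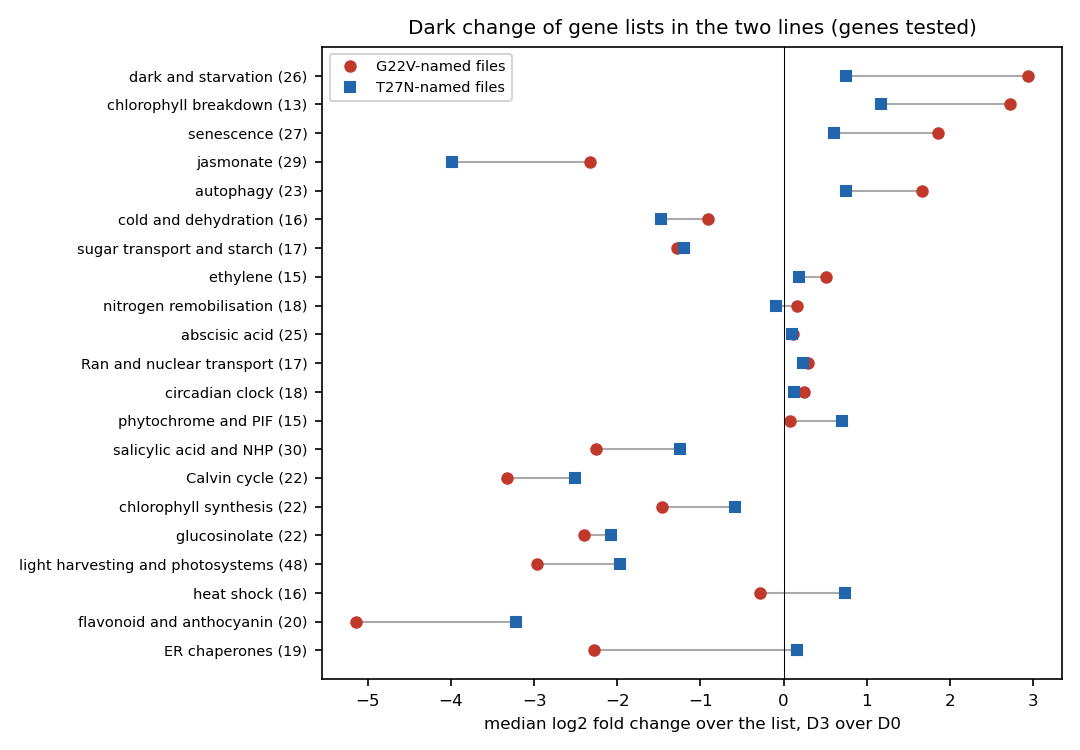
Median log2 dark change (x axis) of the tested members of 21 gene lists in the G22V files (circles) and the T27N files (squares), ordered by the median difference. The endoplasmic reticulum list has −2.28 in the G22V files and 0.16 in the T27N files, and the photosynthesis lists lie left of 0 in both.

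Of 48 light harvesting and photosystem genes, 26 fell in the G22V files (9.36% of all genes) and 14 in the T27N files (6.92%). In neither line did any rise (8.25% and 3.9% of all genes). For the difference 0 were on the higher side and 1 on the lower, none was called, and the median was −0.97, with 2 of the 48 above 0. Both G22V D3 libraries lay below the other 8 for 31 of the 48 (64.6%), a pattern that 10.7% of all genes showed. Without 1 library the median ran from −1.63 (second T27N D0 library left out) to −0.47 (second G22V D0 library), and the count of 1 from 0 to 5 (either Col library). Of 22 Calvin cycle genes, 19 fell in the G22V files (9.36% of all genes) and 17 in the T27N files (6.92%). Both G22V D3 libraries lay below the other 8 for 10 of the 22 (10.7% of all genes). The difference had 0 on the higher and 1 on the lower side (median −0.57). That median ran from −1.14 to −0.17 and that count from 0 to 6 (without the first G22V D3 library). RBCS1A, a small subunit of Rubisco, went from 5301 and 3534 to 209.9 and 78.3 CPM in the G22V files and from 5356 and 2581 to 509.6 and 336 in the T27N files. Its difference of −1.71 ± 0.82 was not called (SE; edgeR adjusted p = 0.432). LHCB3, an antenna protein gene, had 57.8 and 918 CPM in G22V D0 and 132 and 1128 in T27N D0, and its difference of −2.65 ± 2.36 was not called (SE; edgeR adjusted p = 0.715). Of 22 glucosinolate genes, 16 fell in the G22V files (9.36% of all genes) and 12 in the T27N files (6.92%). Their difference had 2 on the higher and 3 on the lower side (median −0.94). Without 1 library that median ran from −1.10 to −0.41 (first T27N D3 library left out), and the count of 3 from 0 to 7. Flavonoid genes had 1 of 20 on the higher and 2 on the lower side (median −1.91). Without 1 library their median ran from −2.15 to −0.39 (first T27N D3 library left out, with −1.05 without the second G22V D0 and −1.10 without the first G22V D3 library), and the count of 2 from 0 to 5.

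Nitrogen remobilisation genes had 5 of 18 on the higher side, ASP3 among them, and 1 on the lower (median 0.30, from 0.14 to 0.56 without 1 library). GDH2, a glutamate dehydrogenase, rose in both lines, to 282 and 172 CPM from 6.75 and 4.85 in the G22V files and to 24.4 and 32.3 from 5.11 and 4.99 in the T27N files (difference 2.81, edgeR adjusted p = 0.107). Abscisic acid genes had 4 of 25 on the higher side and 1 on the lower, ethylene genes 2 of 15 and 0, and circadian clock genes 2 of 18 and 0. Phytochrome and PIF genes had 0 of 15 on the higher side and 1 on the lower, and heat shock genes 1 of 16 on each side. The higher-side count ran, without 1 library, from 1 to 5 for abscisic acid, from 2 to 3 for ethylene and from 0 to 3 for the clock, and the lower-side count from 0 to 5 for heat shock. The higher-side share of the families read by their names ran from 1.22% (receptor kinases and receptor-like proteins) to 20.4% (UDP-glycosyltransferases). Over all genes it was 6.39%. On the lower side, cytochrome P450, UDP-glycosyltransferase and NAC genes had 4, 3 and 2. On the higher side they had 15 of 128, 10 of 49 and 3 of 48. Without the first G22V D3 library the first 2 counts were 9 and 6, and without the second G22V D0 library the NAC count was 6.

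Of the Ran and nuclear transport genes, 0 of 17 reached an unadjusted p below 0.05 on either side. Over all genes the shares were 6.39% and 6.24%, so that 0 is near the share. The median difference was −0.03, and without 1 library it ran from −0.14 to 0.04. RAN1 (AT5G20010) had 560.2 and 619.8 CPM in G22V D0, 851 and 913 in G22V D3, 1518 and 1334 in T27N D0, 1086 and 1263 in T27N D3 and 437 and 256 in Col D0. All 8 Ran libraries were above both Col libraries. RAN2 had 85 and 104, 160.4 and 159, 153 and 117 and 237 and 254 CPM in the same order of groups, and 53.5 and 51.2 in Col D0. Counts per gene do not separate a transgene's transcript from the plant's own, nor a mutant base from the native one, so these levels do not tell which form a library carries. The differences were 0.86 ± 0.53 for RAN1, −0.11 ± 0.40 for RAN2 and −0.01 ± 0.35 for RAN3 (SE; edgeR adjusted p = 0.553, 0.965 and 1). RANGAP1, which makes Ran hydrolyse its GTP, fell in both lines, from 76.4 and 79.8 to 12.1 and 9.38 and from 110.3 and 112 to 28.5 and 26.4 CPM.

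Markers of leaf cell types were examined alongside. None of the 19 leaf markers tested was called for the difference, where 0.21% of all genes were, so that 0 is near the share. On the lower side, 3 of 4 epidermis, 1 of 5 guard cell, 1 of 5 phloem and 0 of 5 mesophyll markers had an unadjusted p below 0.05. The share over all genes was 6.24%. By their own tests 4 of 5 phloem and 3 of 4 epidermis markers fell in the G22V files (9.36% of all genes). In the T27N files 1 of 5 and 1 of 4 fell (6.92%). Of the mesophyll markers 3 of 5 fell in each line, and of the guard cell markers 0 of 5. The epidermis marker CUT1, an enzyme of wax synthesis, went from 723 and 1103 to 160.0 and 111 CPM in the G22V files and from 935 and 998 to 553 and 522 in the T27N files. The part of cell makeup in the differences above was not tested.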

How the data were processed

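The authors deposited raw counts per gene, 1 file per library. The submitters' processing notes name Bowtie2, TAIR10 and edgeR, and per the labels' protocols libraries came from a Lexogen QuantSeq kit. Counting program and strand setting are not stated there. All 33028 rows are named, 32576 (98.63%) were paired with a locus through RefSeq TAIR10.1, and 429 share a name. Libraries of a pair differed beyond counting noise (at least 33.2 chi-square per gene), so none was taken as a copy.

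Counts were fitted in R 4.3.3 with edgeR 4.0.16 (quasi-likelihood): filterByExpr left 21475 genes, scaling was by TMM, and 5 group means were fitted to all 10 libraries (biological coefficient of variation 45.0%). Called means a Benjamini-Hochberg adjusted p below 0.05 over all genes. SE is the log2 value over the root of F. CPM use TMM-scaled totals, and reads without molecular identifiers are not independent molecules. DESeq2 1.42.0 and limma 3.58.1 were alternatives. The fit was also run on simulated data, for which no rate of recovered or false calls is given here.

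The 21 process lists (474 members, 458 tested), 11 families, 5 marker lists and the named-gene rule were chosen with earlier results of these data known. The rule took the 10 largest called differences each way with a highest pair mean of at least 10 CPM, called list members, and 15 fixed genes. Only 4 genes were called lower, so 6 uncalled genes were added there for their small unadjusted p. They were BIP1, BIP2, SHD, PDIL1-1, PME44 and AT3G14240, a subtilase family gene (difference −2.28, edgeR adjusted p = 0.0605). The other called genes were named after their values were seen. ATG1C was dropped because its row pairing was doubtful.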

Additional observations from a re-analysis of the deposited data

Results flagged for a closer look

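The values here are the tested differences between the dark changes of the G22V files and the T27N files, in log2 units by file name, and each passed edgeR's quasi-likelihood test over all genes. In all, 45 genes did, and 2 of them are rows with a shared name that are not named.

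Above 7 stood GLYI4 (9.93), AT1G09500 (8.77), GDPD2 (8.18), AT5G12340 (7.99), AT4G33467 (7.31), AT1G62240 (7.18) and BFN1 (7.14). Between 5 and 7 stood AT5G49600 (6.75), AT5G18980 (6.27), NUDT8 (5.85), ESL1 (5.79), AT4G37432 (5.71), CYP91A2 (5.69), ALPHA-VPE (5.51), CKX2 (5.44), UGT75B1 and its overlapping partner AT1G05562 (5.40 each), and SQE6 (5.04). Between 4 and 5 were RTFL6 (4.93), AT1G53885 (4.48), AT3G18950 (4.45), AT1G53903 (4.40), DIN4 (4.37), GPAT2 (4.34), AT5G20940 (4.20), AT1G62250 (4.13), AT1G03220 (4.10) and AHP1 (4.00). The smallest positive differences were those of STY46 (3.98), RGLG3 (3.76), ASP3 (3.48), AT4G25170 (3.34), UMAMIT33 (3.32), WRKY6 (3.19), HMT3 (3.04), PEX11D (3.02), CSY2 (2.95), AT3G21790 (2.70) and AT4G28025 (2.49). Negative differences were found for PDIL2-1 (−2.50), CRT1a (−3.08), AT2G47480 (−4.03) and MLP43 (−4.44).

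Groups of 2 libraries are too small for a test of whether 1 library stands apart.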

How the results depend on the processing

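Groups in this paragraph carry file names. DESeq2's size factors in edgeR and leaving out ribosomal RNA rows gave 45 calls each, and the stricter filter (5 CPM in 2 libraries) gave 49, of which 8 were lower. No filter gave 568 calls for the difference in dark change (358 higher, 210 lower), 3709 for the T27N dark change, 563 between lines on day 0 and 2107 on day 3. Fitting the 8 Ran libraries alone gave 109 (87 higher, 22 lower), 162 on day 0 and 1451 on day 3. DESeq2 gave 719 (482 higher, 237 lower), 4146 for the T27N dark change, 563 on day 0 and 2583 on day 3. limma-voom, chosen after seeing the data, gave 40 calls, 32 higher and 8 lower, and 34 of them were among the 45. The fit with a replicate block gave 83 (70 higher, 13 lower), all 45 among them. Replicate numbers are shared by the groups, but nothing in the labels ties the numbers together. Deviations of same-numbered libraries correlated by 0.124 to 0.310 among the 3 D0 groups and by −0.00760 to 0.0670 in every other pair of groups. Not every pair passed 0.1, so the numbers were not taken to pair the libraries.

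Leaving out 1 library gave 1 to 135 calls (higher 1 to 104, lower 0 to 31), 1641 to 4658 for the G22V dark change, 486 to 3191 for the T27N dark change, 0 to 180 between lines on day 0 and 27 to 1464 on day 3. A pair left with 1 library was assumed to vary like the others. The cause of these moves was not tested. The 45 genes kept their sign in all 18 alternatives, and were called in 9 to 17 of them. A change of sign occurred only in genes that were not called. Without 1 library NAP ran from −2.05 (first G22V D0 library left out also gave −0.59) to 2.03, ORE1 from −1.99 to 2.16 (−0.46 likewise), PR1 from −1.72 to 0.66, CCA1 from −3.08 to 0.45, RAN2 from −0.37 to 0.059, SAG12 from −2.29 to 2.00, LHCB3 from −4.92 to 0.42 and RAN3 from −0.097 to 0.074. RAN3 was 0.0175 with DESeq2's size factors and 0.0173 with DESeq2, and SAG12 0.18 with limma-voom. On the additive CPM scale, also chosen after seeing the data, RANGAP1 was 16.3, SAG12 342.6 and LHCB3 21.7. Genes near 1 CPM carry few counts.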
